A study of Homo sapiens with 18 samples.

Results

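The comparison described here is between spheroids labelled MMP14-KO and spheroids labelled Wildtype after 48 h inside a collagen hydrogel. It rests on 6 of the 18 RNA-seq libraries of the series, taken by their genotype and treatment labels: 3 MMP14-KO and 3 Wildtype libraries. Both groups are MDA-MB-231, an established human triple-negative breast cancer cell line. Spheroids of 2000 cells had formed for 5 days in hanging droplets before they were embedded, and each sample held 100000 cells. The gels of both groups were cut up and digested with collagenase (2 mg/ml, 37 °C) before RNA was extracted, and polyA RNA was sequenced as pairs of 151 bp reads. The other 12 libraries are the same genotypes in droplets and after 24 h in collagen. Their values are given below only where the 48 h difference is set beside them. All 18 libraries were fitted together, however, so the 12 also entered the filter, the scaling and the spread behind every test at 48 h. The labels name no further allele, drug or treatment. They do not say whether the MMP14-KO cells are 1 clone or a pool, nor whether the 3 libraries of a group came from separate cultures, so a p-value measures the spread between these libraries, which may be technical, and loss of MMP14 cannot be told apart from any other difference between the cell populations.

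MMP14 (also called MT1-MMP) is a metalloproteinase anchored in the plasma membrane. It cleaves fibrillar collagen around the cell and activates other metalloproteinases, and carcinoma cells are known to need it to tunnel through dense collagen. Cells without such proteolysis can move in other ways, squeezing through pores as rounded, contractile cells, and the switch between these modes is called the amoeboid-mesenchymal transition.

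MMP14 mRNA was lower in every MMP14-KO library at 48 h. It stood at 1550, 1506 and 1284 CPM (counts scaled to the size of each library, with TMM normalisation) in the Wildtype libraries and at 163, 143 and 138 CPM in the MMP14-KO libraries. The groups did not overlap, and the MMP14-KO mean was 10.2% of the Wildtype mean. By edgeR's quasi-likelihood test, the log2 fold change was -3.29 with a standard error (SE) of 0.0889, and the p adjusted after Benjamini and Hochberg was 4.84e-16. The gene lies at chr14:22836557-22849027 on the plus strand of GRCh38. Counts per gene do not show whether the remaining transcript encodes protein. Of 25 other tested genes within 500 kb on either side, 6 were lower and 1 was higher, and the neighbour with the largest change was SLC7A7, a cationic amino acid transporter gene (-1.09, SE 0.168, adjusted p = 5.25e-05 by edgeR). Over all genes tested, 15.1% were lower and 14.4% higher. Among protein-coding genes of at least 5 CPM on the whole of chromosome 14, 28.0% were lower.

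The 6 libraries held 19819401 to 26313976 counts, and the 17030 genes tested took at least 99.924% of them. Between libraries of a group the correlation of log2 CPM across genes was 0.9865 to 0.9898, and between the groups it was 0.9753 to 0.9815. Mitochondrially encoded transcripts took 3.07 to 4.18% of counts in Wildtype and 2.88 to 3.68% in MMP14-KO libraries. Long noncoding RNA took 0.987 to 1.02% and 1.11 to 1.20%. In the vocabulary used below, a gene is called higher or lower in MMP14-KO where its adjusted p fell under 0.05 by edgeR's quasi-likelihood test over all genes tested, and every fold change is log2 of MMP14-KO over Wildtype unless it is named as a fold.

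At 48 h, 5029 of the 17030 genes differed, which is 29.5% of those tested: 2458 were higher in MMP14-KO (14.4%) and 2571 lower (15.1%). The counts of each list below are to be read against these shares of 14.4% and 15.1%. The groups did not overlap in 2316 of the higher and 2448 of the lower genes, so lack of overlap adds little to a call. At least 2-fold higher were 591 (3.47%) and at least 2-fold lower 107 (0.628%), a number that was 173 when no filter on low counts was used. With scaling by library size alone in place of TMM, 64.3% of the calls were higher in place of 48.9%, and the median of all genes moved by 0.053 on the log2 scale. The balance changed with expression level. Among 3007 genes under 1 CPM, 301 were higher and 62 lower, while among 2420 genes at 100 CPM or more, 273 were higher and 722 lower. The 2030 tested long noncoding RNAs had 231 members higher and 65 lower, with a median of 0.18 against 0.001 for all genes.

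**Figure D1:**
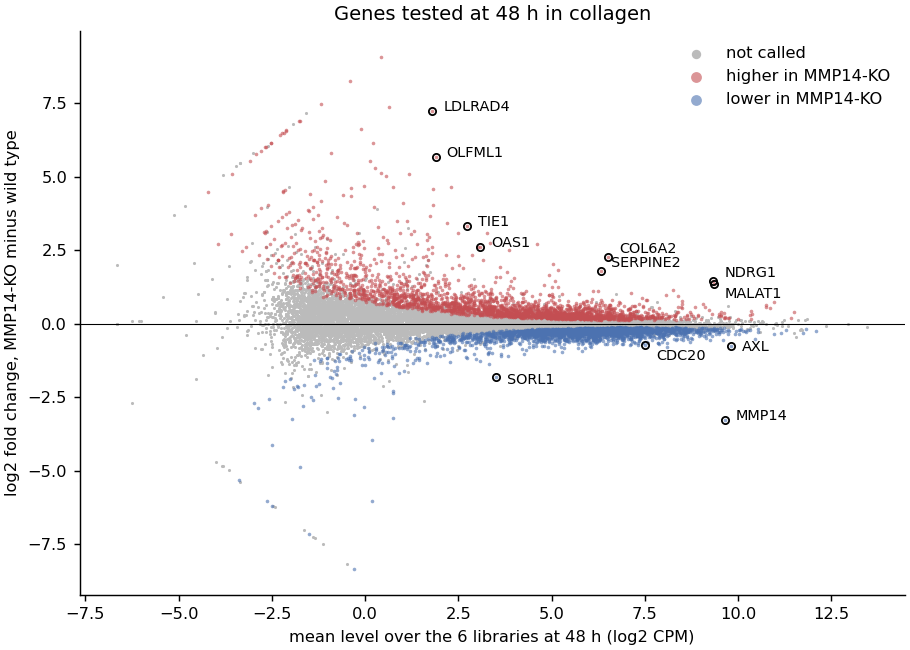
Log2 fold change (MMP14-KO over Wildtype) of each of the 17030 genes tested at 48 h against its mean level in log2 CPM over the 6 libraries; red points are the 2458 genes higher and blue points the 2571 genes lower in MMP14-KO. Large rises gather among genes of low level, MMP14 is the lowest abundant gene at -3.29, and the rays of points at far left are genes at or near 0 counts in 1 group, whose fitted values depend on the prior count.

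The largest rises among genes above 5 CPM were of genes nearly silent in Wildtype spheroids. LDLRAD4, which encodes a membrane protein that dampens TGF-beta signalling, had 3 counts in the Wildtype libraries together and 456 in the MMP14-KO libraries, a ratio of 165 (95% interval 56.0 to 801, counting error only). OLFML1, a secreted olfactomedin-like protein gene, was at 0.0783, 0.167 and 0.173 CPM in Wildtype and at 6.37, 7.80 and 7.78 CPM in MMP14-KO libraries (5.68, SE 0.279, adjusted p = 1.92e-12 by edgeR). TIE1, a receptor tyrosine kinase best known from endothelium, was at 0.979, 1.46 and 1.17 CPM and at 11.1, 12.5 and 12.6 CPM (3.33, SE 0.167). This set was taken only from genes whose groups did not overlap, so the separation is no further evidence. Others in this set were SEL1L3 (4.04), the lipopolysaccharide-binding protein gene LBP (3.68), the adhesion receptor gene ADGRL3 (3.42), the neuronal membrane protein gene SLITRK6 (3.08), the GABA receptor subunit gene GABRA3 (3.05) and the RNA-binding protein gene PCBP3 (2.97). LBP varied most within MMP14-KO, at 4.92, 10.1 and 3.62 CPM. RFPL4A (4.66) and RFPL4AL1 (4.60) are near-identical neighbours, and AKR1C2 (3.09), a steroid reductase gene, has close paralogs, so reads could have been split between copies.

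Above the same level of 5 CPM, falls were smaller. After MMP14 came SORL1, a sorting receptor gene, at 18.2, 16.96 and 18.3 CPM in Wildtype and at 5.35, 4.70 and 5.20 CPM in MMP14-KO libraries (-1.81, SE 0.143, adjusted p = 1.38e-08 by edgeR). AQP1, a water channel gene, followed at 16.0, 14.8 and 12.4 CPM against 6.17, 6.20 and 4.41 CPM (-1.36, SE 0.169). KANK1, whose product sits at the rim of focal adhesions, was at 19.6, 19.8 and 19.0 CPM against 8.32, 10.3 and 8.67 CPM (-1.10, SE 0.0998). Like the rises, these falls were taken only where the groups did not overlap. The oxytocin receptor gene OXTR (-1.32), the receptor kinase gene MUSK (-1.22), the membrane scaffold gene STOM (-1.17), the secreted protein gene CRISPLD2 (-1.13), the giant cadherin gene FAT3 (-1.10), the synaptic vesicle gene RIMS2 (-1.06) and the ubiquitin ligase gene RNF128 (-1.04) completed the set.

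Among abundant genes, with at least 100 CPM in the higher group, the largest rise was of COL6A2, described with the matrix genes, and then of SERPINE2, NDRG1 and MALAT1. MALAT1, a nuclear long noncoding RNA, was at 358, 368 and 365 CPM in Wildtype and at 1328, 791 and 690.5 CPM in MMP14-KO libraries (1.37, SE 0.254, adjusted p = 0.00164 by edgeR). The 3 Wildtype libraries were tight and the 3 MMP14-KO libraries were all higher and spread, with replicate 1 highest. SOX4, a transcription factor gene, was at 105, 98.8 and 68.6 CPM against 214, 176 and 172 CPM (1.04, SE 0.159). SPANXB1 (1.10), one of a family of near-identical genes, was also in this set. Falls of abundant genes other than MMP14 were led by ANKRD1, AXL and CDC20, followed by CEP55 (-0.72), RRM2 (-0.71), the matrix protein gene EFEMP1 (-0.70) and the keratin gene KRT80 (-0.70). CDC20 and CEP55 act in mitosis, RRM2 acts in nucleotide supply, and ANKRD1 and AXL are targets of YAP and TAZ.

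No tested metalloproteinase of the family other than MMP14 was lower. Of 4 tested membrane-type members, MMP14 alone was lower. MMP15 was at 8.26, 9.19 and 6.91 CPM in Wildtype and 8.90, 8.97 and 7.98 CPM in MMP14-KO libraries (0.09, SE 0.105, adjusted p = 0.574 by edgeR), and the groups overlapped. MMP16 was at 4.50, 6.10 and 4.66 CPM against 5.35, 5.92 and 5.35 CPM (0.12, SE 0.136, adjusted p = 0.536), again with overlap. Of 7 secreted collagenases, gelatinases and stromelysins, 3 were higher and 0 lower, all 3 at low levels. The gelatinase gene MMP9 was at 0.313, 0.209 and 0.173 CPM in Wildtype and 1.41, 1.64 and 2.03 CPM in MMP14-KO libraries (2.83, SE 0.316, adjusted p = 1.23e-06). The other gelatinase gene, MMP2, whose zymogen MMP14 activates, was at 1.33, 1.29 and 0.691 CPM against 4.26, 2.82 and 2.38 CPM (1.51, SE 0.251, adjusted p = 0.000126). MMP10, a stromelysin, was at 0.509, 0.793 and 0.518 CPM against 2.304, 3.24 and 2.08 CPM (2.06, SE 0.272). None of these 3 overlapped. MMP1, the interstitial collagenase and an abundant transcript here, was at 252, 314 and 244 CPM against 305, 463 and 313 CPM (0.42, SE 0.181, adjusted p = 0.104), and the groups overlapped. Among other secreted members, MMP28 had 1 count in the Wildtype libraries together and 28 in the MMP14-KO libraries (ratio 30.3, 95% interval 5.01 to 1240, counting error only).

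Inhibitors of proteolysis moved in both directions. TIMP2, which binds MMP14 and takes part in MMP2 activation, was at 1135, 1128 and 1021 CPM in Wildtype and at 833, 919.7 and 822 CPM in MMP14-KO libraries (-0.35, SE 0.0525, adjusted p = 4.02e-05 by edgeR). TIMP3, a matrix-bound inhibitor, was at 1595, 1430 and 1143 CPM against 2241, 1977 and 1967 CPM (0.57, SE 0.1095, adjusted p = 0.00111). SERPINE2, a protease inhibitor of the thrombin and plasminogen activator type, was at 36.8, 40.0 and 29.4 CPM against 119, 142 and 111 CPM (1.81, SE 0.258, adjusted p = 0.000259). All 3 separated the groups without overlap. PLAU, the urokinase gene, was at 435, 447 and 456 CPM against 417, 373 and 434 CPM (-0.13, SE 0.0635, adjusted p = 0.138).

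Several collagen, matrix glycoprotein and laminin genes were higher in MMP14-KO spheroids, among them a pair of collagen VI chains and fibronectin. Of 18 collagen chain genes tested, 6 were higher and 2 lower; their summed level was 1229, 1258 and 1260 CPM in Wildtype and 1704, 1621 and 1653 CPM in MMP14-KO libraries. COL6A2, a chain of the beaded-filament collagen VI, was at 33.9, 32.2 and 28.5 CPM and at 164, 147 and 146 CPM (2.27, SE 0.0769, adjusted p = 3.41e-15 by edgeR), a 4.84-fold difference. Its partner chain COL6A1, which lies near it on chromosome 21, was at 206, 195 and 163 CPM and at 462, 401 and 396 CPM (1.16, SE 0.0960, adjusted p = 1.75e-07). The third chain, COL6A3, was at 65.1, 89.0 and 73.8 CPM and at 74.9, 85.5 and 92.6 CPM (0.15, SE 0.219, adjusted p = 0.658). So 2 of the chains separated the groups and the third overlapped. COL7A1, the anchoring fibril collagen, was at 40.5, 44.8 and 46.8 CPM and at 84.9, 96.3 and 104 CPM (1.11, SE 0.116, adjusted p = 5.48e-06). The 2 lower chains were COL1A2, a chain of the main fibrillar collagen, at 2.54, 3.13 and 3.54 CPM against 0.508, 0.141 and 0.297 CPM (-3.21, SE 0.328), and COL12A1, a fibril-associated collagen, at 65.9, 73.6 and 89.0 CPM against 32.3, 44.7 and 50.8 CPM (-0.84, SE 0.155). Both lay below Wildtype in every MMP14-KO library. COL1A1, the partner chain of COL1A2, was tested and was not called lower.

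Of 16 matrix glycoprotein genes, 6 were higher and 1 lower (2 lower without Wildtype replicate 1). FN1, the fibronectin gene, was the most abundant, at 1512, 1504 and 1450 CPM in Wildtype and 2302, 2828 and 2307 CPM in MMP14-KO libraries (0.74, SE 0.127, adjusted p = 0.00063 by edgeR). SPARC, a collagen-binding matricellular gene, was at 1.10, 1.29 and 0.9497 CPM against 6.83, 4.79 and 6.05 CPM (2.40, SE 0.296). THBS2, a thrombospondin gene, was at 2.58, 1.71 and 2.68 CPM against 7.54, 5.92 and 6.64 CPM (1.53, SE 0.194). In all 3 the groups did not overlap. Of 9 laminin genes, 4 were higher and 0 lower (median 0.026), among them LAMA4 (2.35, SE 0.139), LAMA5 (0.57, SE 0.107) and LAMB2 (0.46, SE 0.0697), which encode basement membrane chains. Of 14 genes for collagen crosslinking and processing, 6 were higher and 0 lower, but 3 were higher and 1 was lower without MMP14-KO replicate 2. Among them was P4HA1, a prolyl hydroxylase gene that is also a hypoxia target (0.41, SE 0.101).

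Several receptors for collagen were higher. Of 8 tested, 5 were higher and 1 lower; the 5 became 3 without MMP14-KO replicate 2 and 2 without Wildtype replicate 3. DDR1, a receptor kinase that binds fibrillar collagen, was at 155, 149 and 114 CPM in Wildtype and 223, 213 and 204 CPM in MMP14-KO libraries (0.62, SE 0.111, adjusted p = 0.000755 by edgeR). MRC2, the endocytic collagen receptor gene, was at 88.3, 93.9 and 81.6 CPM against 123, 117 and 109 CPM (0.41, SE 0.0826). ITGA1, the alpha chain of a collagen-binding integrin, was at 158, 144 and 108 CPM against 225, 266 and 235 CPM (0.82, SE 0.221, adjusted p = 0.0143). Its adjusted p was 0.0551 without MMP14-KO replicate 2 and 0.0701 without Wildtype replicate 3. ITGB1, the beta chain shared by the collagen-binding integrins, was lower, at 2437, 2586 and 2510 CPM against 1964, 2086 and 1970 CPM (-0.32, SE 0.0518, adjusted p = 8.44e-05). ITGB3, the beta chain of a receptor for vitronectin and fibronectin, was higher, at 22.7, 23.1 and 18.9 CPM against 41.6, 48.9 and 39.4 CPM (1.01, SE 0.0887). Across the 5 receptors named, no library of 1 group entered the range of the other.

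**Figure D2:**
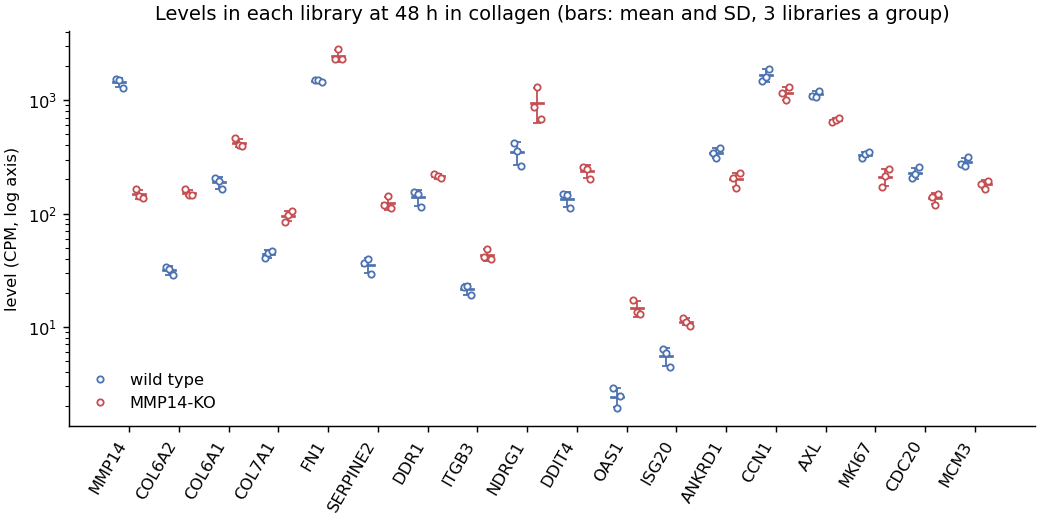
Level in CPM (log axis) of 18 genes in each of the 3 Wildtype (blue) and 3 MMP14-KO (red) libraries at 48 h; circles are libraries and bars are the mean and SD of 3. MMP14 falls from 1284 to 1550 CPM to 138 to 163 CPM, COL6A2 rises from 28.5 to 33.9 CPM to 146 to 164 CPM, and no gene shown overlaps between the groups.

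Genes of cell division were lower in MMP14-KO spheroids at 48 h. Of 45 genes for mitosis and cytokinesis, 38 were lower and 0 higher, with a median of -0.53 against 0.001 for all genes, and all 45 had a negative fold change. Their summed level was 6838, 7193 and 7942 CPM in Wildtype and 4878, 4784 and 5523 CPM in MMP14-KO libraries. The number lower was 22 without MMP14-KO replicate 2 and 18 without Wildtype replicate 3, the Wildtype library with the highest sum. In bulk RNA, fewer cells of a type (here, dividing cells) and less RNA per cell cannot be told apart.

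These genes are known to share promoter elements, a CHR (searched as TTTGAA) and CCAAT boxes (CCAAT), and the elements of 2 members are shown because MKI67 and CDC20 are the best known markers among them. Each stretch runs 5′ to 3′ on the gene's strand and ends 1 base before the annotated transcription start (RefSeq, GRCh38.p14), with TTTGAA in capitals: CDC20 at chr1:43358861-43358980 (plus strand) and MKI67 at chr10:128126424-128126543 (minus strand).
CDC20: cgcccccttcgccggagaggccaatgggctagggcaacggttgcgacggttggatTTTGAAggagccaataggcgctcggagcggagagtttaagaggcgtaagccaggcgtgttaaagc
MKI67: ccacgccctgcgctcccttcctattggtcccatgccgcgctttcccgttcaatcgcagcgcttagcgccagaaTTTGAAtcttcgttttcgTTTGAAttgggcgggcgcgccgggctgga
In windows of 250 bases before to 50 bases after the start, TTTGAA on either strand was present in 32 of the 50 windows of mitosis genes (64.0%) and CCAAT in 37 (74.0%), against 15.2% and 34.6% of all 35116 windows. Of the 32 lower members with a window, 25 held TTTGAA, and of all 38 members with a window 29 did, so it did not set the lower members apart. A match is a description of the sequence and says nothing of what binds there.

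CDC20, which activates the anaphase-promoting complex, stood at 205, 223 and 256 CPM in Wildtype and 141, 120.1 and 149.5 CPM in MMP14-KO libraries (-0.74, SE 0.123, adjusted p = 0.000489 by edgeR). MKI67, the gene of the Ki-67 proliferation antigen, was at 312, 333 and 349 CPM against 173, 214 and 248 CPM (-0.65, SE 0.150, adjusted p = 0.00567). CCNB1, the mitotic cyclin gene, was at 280.2, 308 and 324 CPM against 207, 169 and 213 CPM (-0.63, SE 0.149, adjusted p = 0.00645). Every MMP14-KO library lay below every Wildtype library in all 3. CEP55, which acts in abscission, was at 158, 173 and 182 CPM against 101, 98.0 and 111 CPM (-0.72, SE 0.115), and KIF20A, a cytokinesis kinesin gene, was at 143, 141 and 163 CPM against 92.7, 83.4 and 101 CPM (-0.69, SE 0.156).

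DNA replication genes were also lower. Of 39 genes for origin licensing and the replication fork, 26 were lower and 0 higher (median -0.37), and 38 had a negative fold change. The number lower was 16 without Wildtype replicate 3. Of 6 nucleotide supply genes 5 were lower, but 2 without MMP14-KO replicate 1, MMP14-KO replicate 2 or Wildtype replicate 3. The E2F element (searched as TTTCGCGC, TTTGGCGC or TTTCCCGC, both strands) is known from promoters of this group, and it was present in 20 of the 42 windows of licensing and fork genes (47.6%), against 2.7% of all windows. Of the 23 lower members with a window 14 held it, as did 20 of all 33 with a window. The element did not set the lower members apart. The helicase subunit genes MCM6 and MCM3, with values below, carry it, in capitals: MCM6 at chr2:135876444-135876563 (minus strand), where a match on each strand overlaps, and MCM3 at chr6:52284879-52284992 (minus strand).
MCM6: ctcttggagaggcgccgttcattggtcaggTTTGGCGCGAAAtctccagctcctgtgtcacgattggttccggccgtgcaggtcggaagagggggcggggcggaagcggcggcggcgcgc
MCM3: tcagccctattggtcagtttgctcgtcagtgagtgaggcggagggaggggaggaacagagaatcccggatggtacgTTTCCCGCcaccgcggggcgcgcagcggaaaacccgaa
MCM3 was at 274, 263 and 316 CPM in Wildtype and 184, 165 and 196 CPM in MMP14-KO libraries (-0.65, SE 0.0764, adjusted p = 3.49e-06 by edgeR). MCM6 was at 68.5, 65.7 and 84.0 CPM against 51.4, 41.9 and 53.8 CPM (-0.57, SE 0.103, adjusted p = 0.00057). The groups did not overlap in either. Also lower were the licensing factor gene CDC6 (-0.56, SE 0.0991), the thymidine kinase gene TK1 (-0.69, SE 0.129) and RRM2, a subunit of ribonucleotide reductase, at 178, 184 and 232 CPM against 119, 114 and 131 CPM (-0.71, SE 0.141).

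Of 13 regulators of the step from G1 to S phase, 6 were lower and 1 was higher (2 higher without MMP14-KO replicate 1). CCNE2, a cyclin of S-phase entry, was at 26.7, 22.8 and 30.6 CPM in Wildtype and 14.9, 13.4 and 18.04 CPM in MMP14-KO libraries (-0.79, SE 0.126, adjusted p = 0.000143 by edgeR). CCND1, the abundant D-type cyclin gene, was at 1026, 1078 and 1092 CPM against 880.1, 858 and 942 CPM (-0.25, SE 0.0485). The higher one was CCND2, another D-type cyclin gene, at 1.21, 1.17 and 1.12 CPM against 5.31, 5.45 and 4.96 CPM (2.16, SE 0.197). Each of the 3 separated the groups. The cyclin-dependent kinase inhibitor genes CDKN1B (0.26, SE 0.0634) and CDKN1C (0.72, SE 0.146) were higher, while CDKN1A, the p53 target, was at 111, 107 and 106 CPM against 101, 109 and 97.5 CPM (-0.08, SE 0.0611, adjusted p = 0.375).

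Part of the hypoxia genes were higher in MMP14-KO spheroids. Cells short of oxygen keep HIF factors, which bind ACGTG elements and raise genes of glycolysis, angiogenesis and collagen hydroxylation. Of 28 HIF targets tested, 15 were higher and 1 lower (median 0.46), and 25 had a positive fold change. Their summed level was 3824, 3587 and 3267 CPM in Wildtype and 4652, 5775 and 4157 CPM in MMP14-KO libraries, the highest in MMP14-KO replicate 2. The number higher was 10 without that library. With scaling by library size alone it was 22.

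Of the 33 promoter windows of HIF targets, 17 held ACGTG on either strand (51.5%), as did 17 of the 43 of genes for glycolytic enzymes and their regulators (39.5%), against 21.4% of all windows. Of the 12 higher HIF targets with a window 7 held it, as did 14 of all 24, so it did not set them apart. In the glycolytic list these counts were 5 of 6 and 13 of 18. Stretches of 3 higher members are printed with the element in capitals (CACGT is the same element on the other strand): DDIT4 at chr10:72273714-72273833, MXI1 at chr10:110210111-110210230, from 1 of its 3 windows, and PGK1 at chrX:78103998-78104099, all on the plus strand (RefSeq, GRCh38.p14).
DDIT4: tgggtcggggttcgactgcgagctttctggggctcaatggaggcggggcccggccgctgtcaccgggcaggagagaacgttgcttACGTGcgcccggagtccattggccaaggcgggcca
MXI1: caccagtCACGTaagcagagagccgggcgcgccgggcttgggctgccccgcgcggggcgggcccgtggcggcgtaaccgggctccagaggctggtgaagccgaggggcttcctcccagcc
PGK1: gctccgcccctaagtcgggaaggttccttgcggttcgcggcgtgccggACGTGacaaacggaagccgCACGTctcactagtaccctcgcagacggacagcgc
NDRG1, a stress-induced gene and a standard hypoxia marker, was at 424, 356 and 264 CPM in Wildtype and 866, 1309 and 679 CPM in MMP14-KO libraries (1.45, SE 0.233, adjusted p = 0.000612 by edgeR). DDIT4, an inhibitor of mTOR signalling, was at 149, 145 and 112 CPM against 259, 247 and 202 CPM (0.80, SE 0.137, adjusted p = 0.000716). MXI1, a MYC antagonist, was at 48.7, 45.02 and 36.6 CPM against 66.6, 81.7 and 67.2 CPM (0.72, SE 0.0894, adjusted p = 7.11e-06). The 3 genes had no overlap between the groups.

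Among the other HIF targets, the glycolysis regulator gene PFKFB4 (0.82, SE 0.121) and the histone demethylase gene KDM3A (0.71, SE 0.0822) were higher. VEGFA, the angiogenic growth factor gene, was at 585, 547 and 551 CPM in Wildtype and 677, 791 and 628 CPM in MMP14-KO libraries (0.32, SE 0.0903, adjusted p = 0.0132 by edgeR). Without MMP14-KO replicate 2 it was 0.21 (adjusted p = 0.0919) and without Wildtype replicate 3 it was 0.30 (adjusted p = 0.0579). The target that was lower was SLC2A1, the main glucose transporter gene, at 532, 564 and 554 CPM against 478, 502 and 455 CPM (-0.20, SE 0.0499, adjusted p = 0.00406). Of 18 glycolytic genes 6 were higher and 0 lower (median 0.11); without Wildtype replicate 3 these counts were 3 and 1, and without MMP14-KO replicate 1 there was also 1 lower. PGK1, a glycolytic kinase gene, was at 1162, 1125 and 1007 CPM against 1489, 1706 and 1282 CPM (0.44, SE 0.0768), and ENO2, an enolase gene, was at 141, 124 and 124 CPM against 181, 193 and 153 CPM (0.44, SE 0.0777). Of 6 HIF pathway genes, 2 were higher (1 without MMP14-KO replicate 2) and 0 lower. Of the HIF subunits themselves, EPAS1 (HIF-2 alpha) was at 58.9, 62.4 and 52.1 CPM against 80.3, 96.0 and 83.9 CPM (0.59, SE 0.1096, adjusted p = 0.00094), and HIF1A was at 567, 562 and 494 CPM against 529, 557 and 568 CPM (0.03, SE 0.0553, adjusted p = 0.76).

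Part of the interferon-stimulated genes were higher in MMP14-KO spheroids. Interferon receptors signal through factors such as STAT2 and IRF9, which act at the ISRE element of antiviral genes. Of 37 antiviral effector genes, 18 were higher and 2 lower (median 0.17), and the 2 became 1 without Wildtype replicate 1 or 2 or MMP14-KO replicate 2 or 3. Of 13 sensors and transcription factors, 8 were higher and 2 lower (median 0.21), and of 5 ligand and receptor genes 0 were higher and 1 was lower. The summed level of the effectors was 2240, 2243 and 2084 CPM in Wildtype and 2576, 2420 and 2379 CPM in MMP14-KO libraries.

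The ISRE core (searched as GAAANNGAAA, N being any base) was present in 28 of the 37 windows of effectors (75.7%), against 3.6% of all windows. Of the effectors with a window, 24 of all 29 held it, as did 10 of the 12 higher and 2 of the 2 lower. It did not set the higher members apart from the rest of the list. The element is shown in capitals for ISG20 at chr15:88638896-88639015 (plus strand), IFI6 at chr1:27672193-27672312 (minus strand) and IFI44L at chr1:78620328-78620447 (plus strand), each ending 1 base before the annotated start (RefSeq, GRCh38.p14).
ISG20: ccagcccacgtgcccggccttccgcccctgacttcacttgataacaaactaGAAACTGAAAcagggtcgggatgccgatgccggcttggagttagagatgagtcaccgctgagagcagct
IFI6: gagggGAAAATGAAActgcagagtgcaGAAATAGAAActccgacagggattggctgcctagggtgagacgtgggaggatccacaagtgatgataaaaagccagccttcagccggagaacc
IFI44L: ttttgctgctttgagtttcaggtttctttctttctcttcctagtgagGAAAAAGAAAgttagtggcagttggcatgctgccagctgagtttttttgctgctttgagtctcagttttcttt
ISG20, an exonuclease gene, was at 6.30, 5.80 and 4.40 CPM in Wildtype and 11.8, 11.1 and 10.3 CPM in MMP14-KO libraries (1.01, SE 0.136, adjusted p = 1.2e-05 by edgeR). IFI6, which encodes a mitochondrial survival protein, was at 12.9, 14.0 and 11.3 CPM against 19.7, 14.6 and 17.05 CPM (0.43, SE 0.100, adjusted p = 0.00274). IFI44L was at 1.76, 2.05 and 1.38 CPM against 3.40, 2.96 and 3.17 CPM (0.88, SE 0.214, adjusted p = 0.00394). None of the 3 overlapped, although IFI6 in MMP14-KO replicate 2 came close to the highest Wildtype library.

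The effector with the largest difference was OAS1, which makes the activator of RNase L, at 2.86, 1.92 and 2.46 CPM in Wildtype and 17.2, 13.5 and 13.0 CPM in MMP14-KO libraries (2.59, SE 0.147, adjusted p = 2.49e-11 by edgeR). Its relative OASL was at 20.2, 22.2 and 19.3 CPM against 44.4, 36.9 and 39.3 CPM (0.97, SE 0.0851), and MX2, a dynamin-like restriction factor gene, was at 2.86, 2.297 and 2.03 CPM against 5.55, 3.71 and 4.01 CPM (0.89, SE 0.221). STAT2 was higher, at 73.9, 68.9 and 67.3 CPM against 99.5, 108 and 99.5 CPM (0.55, SE 0.0646, adjusted p = 2.33e-06), and so was IRF9 (0.40, SE 0.0830). Of the DNA sensing pair, the sensor gene CGAS was lower, at 49.9, 57.4 and 59.8 CPM against 45.5, 46.3 and 49.2 CPM (-0.25, SE 0.0643), and its adaptor gene STING1 was higher, at 39.8, 41.2 and 35.0 CPM against 51.1, 54.9 and 45.4 CPM (0.38, SE 0.0940). For STAT2, CGAS and STING1 the groups did not overlap.

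Targets of YAP and TAZ, the coactivators that respond to stiffness and cell spreading, were lower in part. Of 28 tested, 15 were lower (median -0.17) and 1 higher; the 1 was 3 without MMP14-KO replicate 1 and 2 without MMP14-KO replicate 3. Their summed level was 7650, 7714 and 8505 CPM in Wildtype and 6002, 6310 and 6681 CPM in MMP14-KO libraries. ANKRD1, a standard YAP reporter gene, was at 344, 310 and 377 CPM against 205, 169 and 227 CPM (-0.78, SE 0.103, adjusted p = 4.84e-05 by edgeR). AXL, a receptor tyrosine kinase gene, was at 1092, 1078 and 1220 CPM against 646, 670 and 693 CPM (-0.76, SE 0.0596, adjusted p = 7.49e-09). CCN1, a secreted matricellular gene, was at 1476, 1598 and 1897 CPM against 1156, 1012 and 1305 CPM (-0.52, SE 0.1099, adjusted p = 0.00239). All 3 separated the groups. CCN2 (-0.43, SE 0.0779) and the tissue factor gene F3 (-0.39, SE 0.0742) were lower as well. The cadherin gene CDH11, outside this list and in that of neuronal and other adhesion genes, was at 304, 284 and 259.7 CPM against 179.9, 187 and 169 CPM (-0.66, SE 0.0685).

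Targets of MRTF and SRF, which read the state of the actin cytoskeleton, were lower in 14 of 25 (median -0.21); 2 were higher, and 1 when any 1 of the 6 libraries was left out. Their sum was 16761, 17137 and 17616 CPM in Wildtype and 15228, 15140 and 15513 CPM in MMP14-KO libraries. ACTB, the cytoplasmic beta-actin gene, was at 4741, 4772 and 4800.5 CPM against 4058, 3828 and 4034 CPM (-0.26, SE 0.0496, adjusted p = 0.000428 by edgeR). FLNC, a filamin gene, was at 206, 220.2 and 262 CPM against 159, 159.8 and 192 CPM (-0.43, SE 0.0798), and SRF itself was at 144, 152 and 155 CPM against 123, 110 and 127 CPM (-0.32, SE 0.0573). In each of the 3 the lowest Wildtype library lay above the highest MMP14-KO library. ACTA2, the smooth muscle actin gene, was at 2.90, 2.84 and 2.63 CPM against 1.64, 1.74 and 1.24 CPM (-0.85, SE 0.224, adjusted p = 0.00655).

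Some of the genes that build the contractile and the protruding machinery were lower too. Among 18 genes for kinases, myosin and the cell cortex, 8 were lower (median -0.21). MYLK, the myosin light chain kinase gene, was at 29.2, 27.1 and 29.4 CPM in Wildtype and 15.1, 18.3 and 18.3 CPM in MMP14-KO libraries (-0.73, SE 0.0889, adjusted p = 3.47e-06 by edgeR). MYH10, a nonmuscle myosin heavy chain gene, was at 83.3, 90.8 and 97.1 CPM against 57.3, 58.0 and 69.4 CPM (-0.56, SE 0.0817). MYL9, a myosin light chain gene, was at 86.2, 86.5 and 82.8 CPM against 70.3, 56.4 and 69.5 CPM (-0.38, SE 0.0758). The groups did not overlap in any of the 3. Of 28 genes for Rac and Cdc42 and their exchange factors and effectors, 12 were lower, among them CDC42EP3 (-0.33, SE 0.0453) and PAK2 (-0.28, SE 0.0553), and 2 were higher, 1 of them VAV3 (2.64, SE 0.737), an exchange factor gene under 1 CPM in both groups. The 2 became 1 without any library but MMP14-KO replicate 1. Of 25 genes for focal adhesion and invadopodium proteins, 7 were lower (28.0%) and 3 higher, and the 7 became 4 without Wildtype replicate 1. This share lower is not far from the 21.4% of protein-coding genes of at least 5 CPM. VCL, the vinculin gene, was lower (-0.20, SE 0.0475), while the invadopodium scaffold gene SH3PXD2B, at 16.4, 16.7 and 14.7 CPM against 24.0, 28.1 and 25.03 CPM (0.69, SE 0.0905), and the tensin gene TNS1, at 0.313, 0.501 and 0.691 CPM against 3.71, 5.12 and 4.51 CPM (3.14, SE 0.246), were higher.

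**Figure D3:**
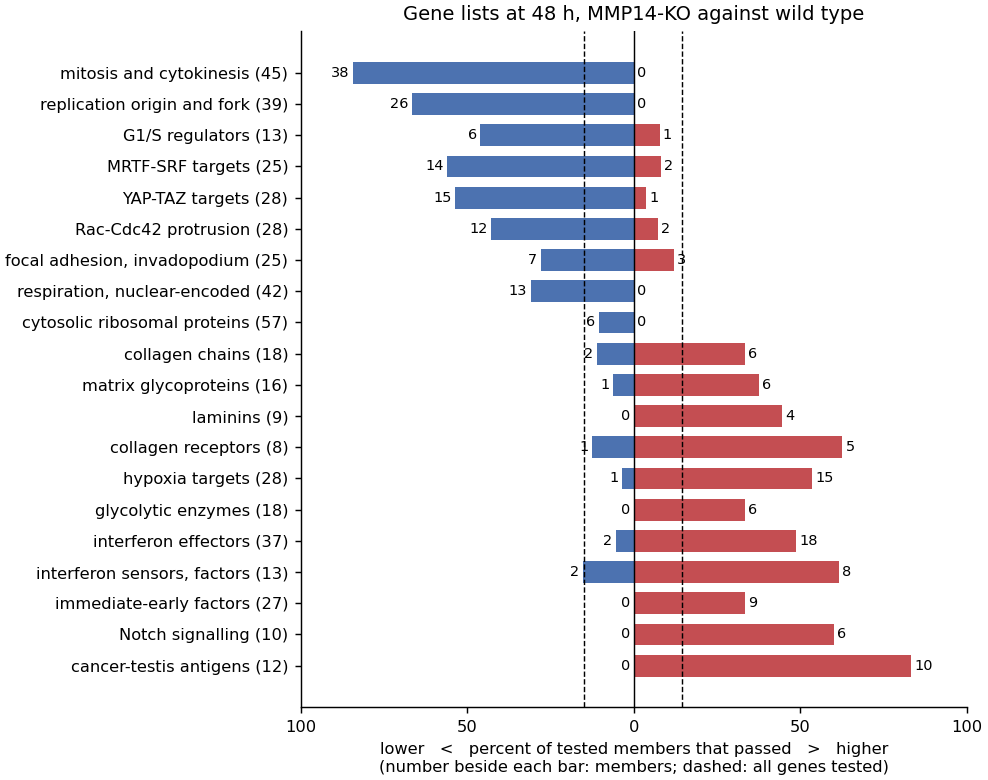
Percent of tested members called lower (to the left) or higher (to the right) in MMP14-KO at 48 h in each of 20 gene lists, with the number of members beside each bar; dashed lines mark all genes tested (15.1% lower, 14.4% higher). Mitosis has 38 of 45 members lower, replication origin and fork 26 of 39 lower, hypoxia targets 15 of 28 higher and cancer-testis antigens 10 of 12 higher.

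Cancer-testis antigen genes, which are normally silent outside the germ line, had 10 of 12 tested members higher and 0 lower (median 2.00); 12 of the 30 listed had enough counts to test. MAGEA6 was at 2.11, 2.38 and 2.50 CPM in Wildtype and 14.9, 13.1 and 14.2 CPM in MMP14-KO libraries (2.60, SE 0.116, adjusted p = 3.61e-13 by edgeR). PAGE5 was at 4.35, 4.34 and 4.32 CPM against 25.7, 23.8 and 24.8 CPM (2.52, SE 0.0918). SSX1 was at 0.587, 0.543 and 1.21 CPM against 5.66, 5.59 and 5.40 CPM (2.84, SE 0.242). In these 3 every MMP14-KO library was several times the highest Wildtype library. MAGEA3 (3.05, SE 0.248) was higher, and MAGEA12 had 2 counts in the Wildtype and 154 in the MMP14-KO libraries (ratio 83.4, 95% interval 22.7 to 695). MAGEA3, MAGEA6 and MAGEA12 are near-identical copies whose reads could be split, so their separate values are uncertain. MAGED2, an X-linked relative that is widely expressed and not restricted to the germ line, was at 218, 215 and 180.3 CPM against 281, 247 and 250.4 CPM (0.35, SE 0.0711).

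Of 27 neuronal and other cell adhesion and guidance genes tested, 12 were higher and 3 lower (1 lower without MMP14-KO replicate 1). CDH10, a neuronal cadherin gene, had no count in any Wildtype library and 1.21, 1.74 and 1.59 CPM in MMP14-KO libraries, at least 36.6-fold higher against a floor of 3 counts over the group. CDH7, another cadherin gene, had 3 counts against 142 (ratio 51.3, 95% interval 17.2 to 252). L1CAM, a neural adhesion gene linked to invasion in carcinoma, was at 116, 115 and 101 CPM against 146, 171 and 149.7 CPM (0.49, SE 0.0658, adjusted p = 1.13e-05 by edgeR). SLIT2, a guidance ligand gene, was at 44.2, 41.4 and 44.0 CPM against 65.4, 66.4 and 66.5 CPM (0.61, SE 0.0998), and NLGN1, a synaptic adhesion gene, was lower at 13.2, 11.9 and 15.0 CPM against 6.52, 6.58 and 7.38 CPM (-0.97, SE 0.135). None of these overlapped.

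In the Notch pathway, in which cell contact releases a receptor fragment that raises HES and HEY genes, 6 of 10 tested genes were higher and 0 lower (median 0.37). The receptor gene NOTCH1 was at 40.9, 41.8 and 41.4 CPM in Wildtype and 50.2, 55.7 and 53.03 CPM in MMP14-KO libraries (0.36, SE 0.0631, adjusted p = 0.000248 by edgeR). NOTCH3 was at 1.21, 1.38 and 0.863 CPM against 2.81, 2.72 and 2.53 CPM (1.22, SE 0.258). The target gene HES1 was at 6.18, 7.06 and 5.66 CPM against 14.2, 9.96 and 12.1 CPM (0.94, SE 0.143, adjusted p = 5.76e-05). Receptors and target lay apart in the groups, and HEY1, another target gene, was higher at a low level (1.12, SE 0.274).

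Of 27 immediate-early transcription factor genes, which growth factors and tissue dissociation induce within minutes, 9 were higher and 0 lower (median 0.18). KLF10 was at 85.6, 85.2 and 83.5 CPM in Wildtype and 115, 129 and 115 CPM in MMP14-KO libraries (0.50, SE 0.0665, adjusted p = 1.14e-05 by edgeR), and JUNB, an AP-1 subunit gene, was at 176, 169.9 and 144 CPM against 236, 246 and 205 CPM (0.49, SE 0.107). The antiproliferative gene BTG1 was at 133, 133 and 109 CPM against 207, 219 and 170.1 CPM (0.67, SE 0.0894). All 3 separated the groups. Both groups had been digested, and whether they responded differently to digestion was not tested. Among 23 inhibitors of the cell cycle and p53 targets, 9 were higher and 4 lower; the 4 became 2 without MMP14-KO replicate 1, Wildtype replicate 1 or Wildtype replicate 2, and 1 without MMP14-KO replicate 2 or Wildtype replicate 3. GADD45A, a DNA damage gene in this group, was at 31.0, 33.9 and 35.7 CPM against 51.0, 40.8 and 44.6 CPM (0.44, SE 0.0932).

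In the BCL2 family, 3 of 13 genes were higher and 3 lower (23.1% each), not far from the 14.4% and 15.1% of all genes tested. BCL2, which blocks apoptosis, was at 11.6, 10.4 and 13.3 CPM in Wildtype and 6.17, 6.58 and 9.17 CPM in MMP14-KO libraries (-0.70, SE 0.141, adjusted p = 0.000834 by edgeR). BMF, which promotes it and is known for its link to loss of attachment, was at 24.7, 24.8 and 19.4 CPM against 40.4, 44.3 and 36.5 CPM (0.81, SE 0.101, adjusted p = 8.32e-06). The groups did not overlap in either gene. Of 24 antigen presentation genes, 5 were higher (20.8%) and 2 lower (8.33%), again not far from the shares over all genes. The largest rises were of HLA-DPA1, at 29.1, 26.2 and 23.1 CPM against 52.1, 36.4 and 38.9 CPM (0.70, SE 0.138), and HLA-DPB1 (0.80, SE 0.180). Both encode chains of an MHC class II molecule.

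Markers of the line and of other cell types were set beside these lists. The line's own claudin-low markers were abundant in both groups, with a sum of 7489 to 7882 CPM in Wildtype and 7284 to 7565 CPM in MMP14-KO libraries. Of these 8 markers, 3 were lower and 0 higher (median -0.145), though 1 was higher without MMP14-KO replicate 1. VIM, the mesenchymal filament gene, was at 3419, 3291 and 3461 CPM in Wildtype and 3834, 3831 and 3546 CPM in MMP14-KO libraries (0.14, SE 0.0602, adjusted p = 0.084 by edgeR), and CD44, the hyaluronan receptor gene, was lower (-0.27, SE 0.0684). Of 9 endothelial markers, TIE1 and PECAM1 were higher and KDR was tested and not called, while CDH5, VWF, TEK, CLDN5, ERG and EMCN were too low to test. The sum of the tested ones was 17.9 to 21.6 CPM in Wildtype and 38.2 to 47.9 CPM in MMP14-KO libraries. PECAM1 was at 15.1, 13.2 and 9.07 CPM against 26.2, 29.5 and 19.7 CPM (1.01, SE 0.282, adjusted p = 0.0171), but its adjusted p was 0.0683 without MMP14-KO replicate 2 and 0.0782 without Wildtype replicate 3. Fibroblast markers summed to 37.4 to 38.6 CPM and 44.0 to 54.1 CPM. Of 6 tested, 2 were higher, among them PDGFRB at 11.6, 10.5 and 10.4 CPM against 17.2, 16.8 and 16.0 CPM (0.62, SE 0.108). The 1 that was lower, by at least 2-fold, was COL1A2, described with the matrix genes. DCN, FAP, POSTN and THY1 were too low to test. Leukocyte markers summed to 109 to 130 CPM and 104 to 130 CPM, with 3 of 6 tested higher and 0 lower (median 0.51); the 3 became 1 without MMP14-KO replicate 2 or Wildtype replicate 3. The luminal hormone receptor genes ESR1 and PGR and the basal keratin genes KRT5 and KRT14 were too low to test. Of 5 basal markers tested, 2 were lower and 0 higher (median -0.113). The 2 became 1 without MMP14-KO replicate 1 or Wildtype replicate 2 or 3. Of 11 luminal markers tested, 5 were higher, 3 of them at least 2-fold, and 3 were lower (median 0.06). Among the lower ones, SPDEF, a luminal transcription factor gene, was at 66.0, 62.6 and 54.3 CPM against 45.5, 43.6 and 37.7 CPM (-0.53, SE 0.0925).

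The 48 h difference was set against the difference between the same genotypes at 24 h in collagen and in droplets, before embedding. The genotype difference at 48 h could not be told from that at 24 h for any gene: 0 of 17030 passed (0.0%) by edgeR's quasi-likelihood test of the interaction, where the smallest adjusted p was 0.177, 1107 genes had an unadjusted p under 0.05, and DESeq2 called 10 (965 unadjusted). Without Wildtype 24 h replicate 1, 2 genes passed. Among the genes that shared this smallest adjusted p were COL6A2, whose fold change was 2.27 at 48 h and 1.73 at 24 h, and CDKN1A, at -0.08 and -0.50. Mitosis had a median of -0.74 at 24 h and -0.53 at 48 h, with 44 and 38 of 45 members lower. Replication origin and fork genes had -0.54 and -0.37, with 38 and 26 of 39 lower.

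Against droplets, 1156 genes differed in their genotype difference (6.79% of those tested): 682 were more positive at 48 h and 474 more negative. Of the 1156, 658 were called between the genotypes at 48 h and not in droplets, 313 in droplets and not at 48 h, 64 in both in 1 direction, 74 in both in opposite directions and 47 in neither. The count of 682 depended on single libraries: it was 419 without MMP14-KO 48 h replicate 2, 199 without Wildtype 48 h replicate 3, 385 and 240 without MMP14-KO droplet replicates 1 and 3, and 191 and 266 without Wildtype droplet replicates 1 and 2. The count of 474 was 269 and 138 without Wildtype 48 h replicates 2 and 3, 154 without MMP14-KO droplet replicate 3, and 125, 192 and 990 without Wildtype droplet replicates 1, 2 and 3. Matrix, time and collagenase digestion all differ between droplets and 48 h, and their parts cannot be told apart.

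Several genes crossed from 1 side to the other, while NEDD9 and PLAC8 were not called at 48 h. BMF was lower in MMP14-KO droplets (-0.35) and higher at 48 h (0.81), a difference of 1.16 (SE 0.137, adjusted p = 0.00016 by edgeR's test of the interaction). CCN2 was higher in droplets (0.47) and lower at 48 h (-0.43), a difference of -0.90 (SE 0.112, adjusted p = 0.000248). G0S2, an inhibitor of lipolysis, was higher in droplets (0.84) and lower at 48 h (-0.34), a difference of -1.18 (SE 0.126, adjusted p = 9.79e-05). CDCA7L, a MYC-interacting factor gene, and the metallothionein gene MT2A crossed in the same sense, from 0.27 to -0.53 and from 0.31 to -0.52. NEDD9, a focal adhesion scaffold gene, was at -0.79 in droplets and 0.16 at 48 h (adjusted p = 0.105 for the latter), and the difference was 0.94 (SE 0.101, adjusted p = 7.25e-05). PLAC8 was at 0.93 and 0.07, where the 48 h value had an adjusted p of 0.468, and HAS3, a hyaluronan synthase gene, was at -0.59 in droplets, -0.22 at 24 h and 0.54 at 48 h.

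The lists were set beside their droplet values in the same way, with the number of members that passed edgeR's test of the interaction. Cytosolic ribosomal protein genes, which build the ribosome, had 37 of 57 higher in droplets, 27 lower at 24 h and 6 lower at 48 h, and 25 had a more negative difference at 48 h than in droplets; the 25 was 4 without Wildtype droplet replicate 1 and 43 without MMP14-KO 48 h replicate 1 or Wildtype droplet replicate 3. The 6 lower at 48 h became 26 without MMP14-KO replicate 1, 1 and 3 without replicates 2 and 3, and 12, 3 and 2 without Wildtype replicates 1, 2 and 3. Replication origin and fork genes had a droplet median of 0.006 with 2 lower and 1 higher, and 11 of 39 had a more negative difference at 48 h. This was 3 without Wildtype 48 h replicate 3 or Wildtype droplet replicate 1 or 2, and 17 without Wildtype 24 h replicate 1. YAP-TAZ targets had 5 higher and 5 lower in droplets, and 7 of 28 had a more negative difference at 48 h, which was 4 without Wildtype 48 h replicate 3 or Wildtype droplet replicate 1. Interferon sensors and factors had 0 higher and 3 lower in droplets, against 8 and 2 at 48 h, and 4 of 13 had a more positive difference. Other lists already differed in droplets, where 1312 of all 17030 genes were higher and 1652 lower. Cancer-testis antigens had 9 of 12 higher and 1 lower there (median 2.116). Hypoxia targets had 9 of 28 higher and 0 lower there (median 0.192). In each of these 2 lists, 1 member had a more positive and 1 a more negative difference at 48 h.

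For mitosis and for mitochondrially encoded genes the interaction was not called. Mitosis genes had a median of -0.12 in droplets with 2 of 45 lower, and 0 of 45 passed the test of the 48 h against the droplet difference by edgeR (23 with an unadjusted p under 0.05), while DESeq2 called 5 (29 unadjusted), the fit without a filter 37 and the fit with a replicate block 15. Mitochondrially encoded genes had a median of -0.849 in droplets with 13 of 13 lower and of -0.231 at 48 h with 2 lower. Of these, 0 of 13 passed the same test by edgeR (8 unadjusted), DESeq2 called 1 (9 unadjusted), and 12 passed without a filter. The 2 lower at 48 h became 0 without MMP14-KO replicate 2 or 3 or Wildtype replicate 1 or 2.

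**Figure D4:**
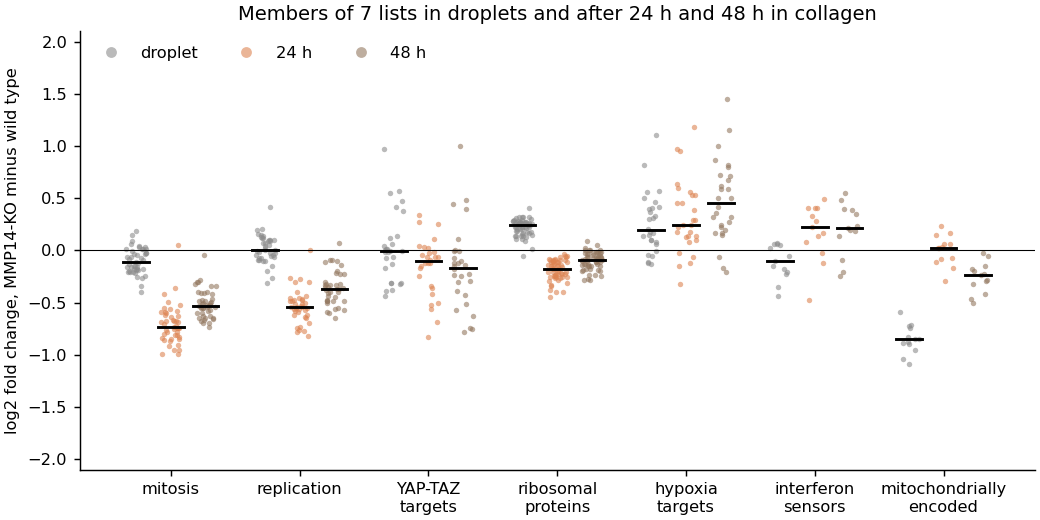
Log2 fold change (MMP14-KO over Wildtype) of each tested member of 7 gene lists in droplets (grey), after 24 h (orange) and after 48 h in collagen (brown); black lines are list medians. Mitosis has medians of -0.12, -0.74 and -0.53, ribosomal proteins have 0.244, -0.177 and -0.095, and mitochondrially encoded genes are lowest in droplets.

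Lower genes were not spread evenly over the chromosomes at 48 h, a pattern that was noticed after the values were seen and carries no test. Among 10942 protein-coding genes of at least 5 CPM, 21.4% were lower, but on chromosome 6 it was 242 of 576 (42.0%, median -0.14), on chromosome 18 it was 33.1% and on chromosome 11 it was 205 of 634 (32.3%). When genes were taken in order along each chromosome in 427 blocks of 25, 17 blocks had a median under -0.2, and 8 of them were among the 23 blocks of chromosome 6 and 5 among the 25 of chromosome 11. A single block had a median over 0.2. On chromosome 6 the first 14 blocks, which end at position 75206051 (GRCh38), had droplet medians of -0.261 to -0.169, and the other 9 had -0.051 to 0.102, so the step was present before embedding. At 48 h the lowest block, at -0.359, was on chromosome 11.

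**Figure D5:**
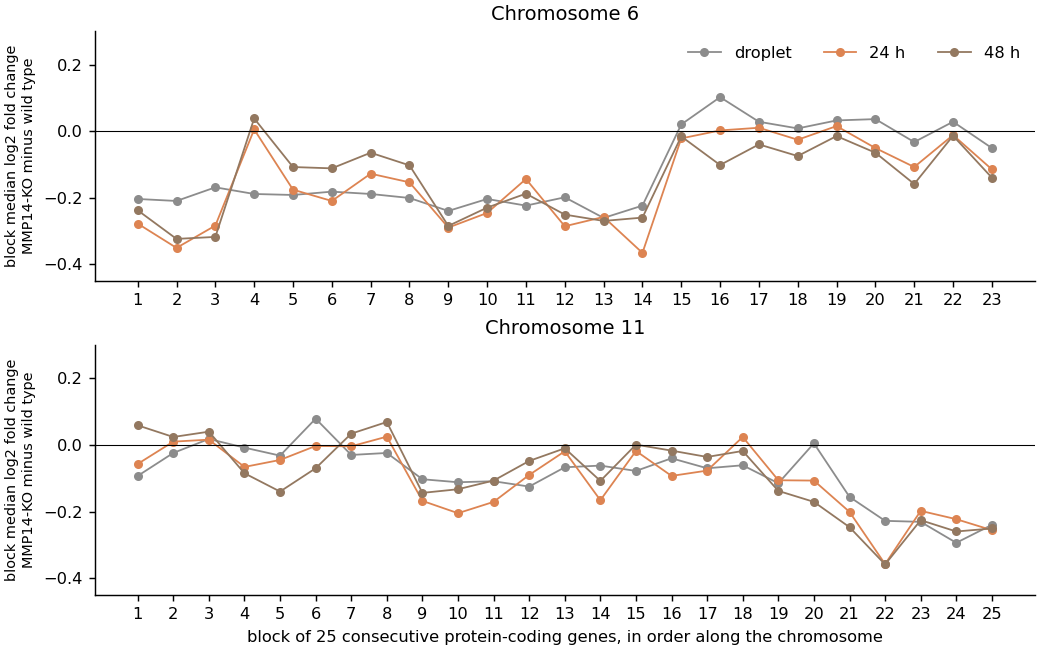
Median log2 fold change (MMP14-KO over Wildtype) of blocks of 25 consecutive protein-coding genes along chromosomes 6 (23 blocks) and 11 (25 blocks), in droplets (grey), at 24 h (orange) and at 48 h (brown). Blocks 1 to 14 of chromosome 6 have droplet medians of -0.261 to -0.169, later blocks lie near 0, and the last 5 blocks of chromosome 11 lie under -0.2 at 48 h.

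The division lists were counted with and without chromosome 6. Of the replication and S-phase genes, 3 lie there, CCND3, GMNN and MCM3, and all 3 were lower, while of the 55 elsewhere 34 were lower and 1 higher (median -0.356). Of the mitosis genes, 44 lie elsewhere, and 38 of these were lower (median -0.533).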

How the data were processed

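Gene expression was measured by RNA-seq in 18 libraries (6 groups of 3, by genotype and condition), of which the 6 at 48 h in collagen carry the comparison. The authors deposited 1 table of expected counts per gene. The submitters' processing notes name cutadapt 2.3, FastQC 0.11.8, STAR 2.7.8a, RSEM 1.3.3, MultiQC 1.7, DESeq2 1.42.0 and the build GRCh38; neither the annotation release nor the strand setting is given in the sources used here. The deposited expected counts were already whole numbers. Of 62714 entries, 4 are reporter sequences without a read and were left out; of the other 62710 genes, 20930 have no symbol and 29346 have no read. The 17030 genes kept by filterByExpr (minimum count 10) were fitted in edgeR 4.0.16 (R 4.3.3, limma 3.58.1) with TMM scaling, 1 coefficient per group, 12 residual degrees of freedom and a common dispersion of 0.00481. Differences were tested with the robust quasi-likelihood test and Benjamini-Hochberg adjustment over all genes tested (threshold 0.05). A standard error is the absolute log2 fold change over the square root of F. Levels are CPM with TMM scaling. A group with no count was set to a floor of 3 counts over the group; 95% exact intervals and floors cover counting error only. On simulated counts for the 48 h comparison (16786 genes), 56 of 67 genes changed 1.5-fold, 65 of 67 changed 2-fold and 65 of 66 changed 4-fold were called, and 9 of 195 calls were of unchanged genes. The genes to be changed were drawn only from those above a minimum mean count.

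Libraries were grouped by their labels. The gene lists (30 lists, 66 roles, 1134 genes, 1023 tested) and the named genes were chosen with earlier results of these data known. Named were MMP14; the 12 largest rises and falls at 5 CPM or more in the higher group and the 8 largest at 100 CPM or more, without overlap between groups and with a symbol that is not a clone, locus or antisense name; up to 4 per list role at 1 CPM or more; and, for each interaction, the 8 with the smallest adjusted p. Not all of these are printed. Members of lists that did not pass are given with their values. Outside this rule and chosen after their values were seen are MMP28, TIMP2, COL12A1, ITGB1, CCNB1, MKI67, CDC6, CCND1, CDKN1B, MXI1, KDM3A, VEGFA, SLC2A1, IFI44L, IFI6, CGAS, CCN1, F3, GADD45A, ACTB, SRF, VAV3, VCL, PAGE5, MAGED2, L1CAM, NLGN1, SLIT2, NOTCH1, JUNB and MCM4.

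Gene positions came from GENCODE 29 (58274 genes matched, 16410 of them tested), and promoter windows of 250 bases before to 50 after the start from RefSeq (GRCh38.p14), where 793 of the 1023 tested list genes had a window. Of 150 genes printed, 81 overlap a gene on the other strand, 21 of them a protein-coding one; without a known strand setting the reads of such pairs may not be separable. Those 21 are ACTA2, CCND1, CCNE2, CDCA7L, CGAS, HAS3, HLA-DPA1, HLA-DPB1, JUNB, KIF20A, LAMA4, LAMA5, MMP28, MYH10, OXTR, PGK1, PLAU, RIMS2, SEL1L3, TIMP3 and VCL. Alternatives tried were RLE scaling, scaling by library size, no filter on low counts, DESeq2 1.42.0, a replicate block, a fit of the 6 libraries alone, and each library left out in turn.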

Additional observations from a re-analysis of the deposited data

Results flagged for a closer look

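For 1156 genes the genotype difference at 48 h in collagen was not that of droplets by edgeR's quasi-likelihood test of the interaction, and 43 of the genes printed here are among them. Values are the 48 h minus the droplet genotype difference on the log2 scale. Groups of 3 libraries are too small for a test of single outlying libraries. Every value has an adjusted p under 0.05, and matrix, time and digestion all differ between the conditions, so their parts cannot be told apart.

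Among matrix genes and their receptors, the difference was more positive at 48 h for COL7A1 (1.18), COL6A1 (0.72), COL6A2 (0.54), HAS3 (1.13), DDR1 (0.74) and PDGFRB (1.04), and more negative for ITGB1 (-0.35) and EFEMP1 (-0.46). Of the proteases, MMP2 (1.40) and MMP28 (3.66, a fitted value that depends on the prior count) were more positive and PLAU (-0.36) more negative. For MMP14 itself it was 0.44, with fold changes of -3.73 in droplets and -3.29 at 48 h.

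Among genes of cell division and survival, CCNE2 (-1.09), MCM6 (-0.73), MCM4 (-0.48), MCM3 (-0.39), CDCA7L (-0.79) and BCL2 (-0.77) were more negative, and BMF (1.16) was more positive. Among YAP-TAZ targets, CCN2 (-0.90) and AXL (-0.38) were more negative. The adhesion scaffold genes NEDD9 (0.94) and SH3PXD2B (0.68) were more positive.

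Of the interferon and hypoxia lists, OAS1 (0.84), STING1 (0.61), ISG20 (0.61), STAT2 (0.53), OASL (0.40), EPAS1 (0.59) and VEGFA (0.43) were more positive. Of the remaining genes, MALAT1 (1.72), SLITRK6 (1.26), PCBP3 (1.13), SOX4 (0.83), HES1 (0.68), L1CAM (0.45) and MAGED2 (0.33) were more positive, while G0S2 (-1.18), MAGEA6 (-0.998), PLAC8 (-0.86), MT2A (-0.84), NLGN1 (-0.77) and SORL1 (-0.66) were more negative. MAGEA6 was higher in MMP14-KO in both conditions, at 3.59 in droplets and 2.60 at 48 h.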

How the results depend on the processing

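The 48 h total of 5029 genes was 5108 with RLE scaling, 4889 with library size scaling, 5163 without a filter, 5036 with DESeq2, 5277 with a replicate block and 3813 in the fit of 6 libraries. Leaving out 1 library at 48 h gave 1728 to 2282 genes higher and 1843 to 2394 lower, 500 to 611 at least 2-fold higher and 89 to 108 at least 2-fold lower. No gene called at 48 h changed sign under these alternatives. The number at least 2-fold lower was 173 without a filter. Deviations of same-numbered Wildtype and MMP14-KO libraries had r of -0.025, -0.007 and 0.288 over 11363 genes. Differently numbered ones had -0.237 to 0.217, so the pair of replicates 3 was the highest. Replicate numbers were not taken as pairs in the main fit. Of the genes named, ITGA1, VEGFA and PECAM1 passed no longer without MMP14-KO replicate 2 or Wildtype replicate 3; MMP1 passed without a filter (0.40, adjusted p = 1.31e-09 by edgeR), PLAU with the replicate block (-0.13), and VIM (0.19) and NEDD9 (0.21) with library size scaling. Of 132 counts over lists, library size scaling moved 24 by over 1.5 times, no filter 20, the 6-library fit 15, DESeq2 8, RLE 4, the replicate block 4 and single libraries 14 to 36. The interaction with 24 h had 240 genes without a filter, 10 with DESeq2 and 0 to 2 with 1 library left out. Against droplets, the genes more positive at 48 h were 1106 without a filter and 191 to 987 with 1 library left out. The more negative ones were 304 with library size scaling, 1004 without a filter, 904 with DESeq2, 848 with the replicate block and 125 to 990 with 1 library left out. The cause of these shifts was not tested. In counts simulated for the 48 h comparison, 83.6% of 1.5-fold changes were called. The changed genes were all above a minimum mean count, so recovery among genes of low count was not measured.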

Other observations

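Some genes had no count in 1 group at 48 h, and their differences are lower bounds against a floor of 3 counts over the group. CECR2, a chromatin remodelling gene, had no count in Wildtype and 180 counts in the MMP14-KO libraries together, at least 65.1-fold higher. LCP2, an adaptor gene of immune cells, had 58 counts and was at least 21.6-fold higher, and the cancer-testis genes SAGE1 and MAGEB2 had 31 and 19 counts and were at least 11.2-fold and 7.06-fold higher. In the other direction, MDFIC2 had no count in MMP14-KO and 118 counts in Wildtype, at least 36.2-fold lower, and the chemokine receptor gene ACKR3 had 26 counts in Wildtype and was at least 7.97-fold lower. These genes were chosen after their values were seen.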
